A study of Homo sapiens with 12 samples.

Results

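The collagen-modifying hydroxylases and lysyl oxidases were described across 3 human carcinoma cell lines kept in normoxia or exposed to hypoxia. The 10 genes, chosen by their symbols from the 25369 genes of the count table, were the lysyl hydroxylases PLOD1, PLOD2 and PLOD3, the prolyl 4-hydroxylase alpha subunits P4HA1 and P4HA2, and the lysyl oxidases LOX, LOXL1, LOXL2, LOXL3 and LOXL4. RKO cells are colon carcinoma cells, and A549 and H460 cells are lung carcinoma cells. Each line was grown with 10% fetal bovine serum, RKO and A549 in DMEM and H460 in RPMI. The medium of H460 therefore cannot be told apart from the line in any comparison of levels or hypoxia responses with another line. Hypoxia was 24 h in an atmosphere of 1% O2, and normoxia was the ordinary culture atmosphere. Poly(A)+ RNA of 2 independent biological replicates per line and condition gave 12 strand-specific libraries. The labels name no genetic change or drug in any group, and each line is a single model of its tumor type.

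Procollagen chains are modified in the endoplasmic reticulum before they are secreted. Prolyl 4-hydroxylases, tetramers of alpha subunits with the protein disulfide isomerase P4HB, hydroxylate proline and so make the triple helix stable at body temperature, and lysyl hydroxylases (PLOD) hydroxylate lysine, which sets where sugars and crosslinks can be attached. Both kinds of enzyme need molecular oxygen, iron and 2-oxoglutarate, and PLOD2 is known for the lysines of the collagen telopeptides. Outside the cell, lysyl oxidases, copper enzymes, oxidize lysine and hydroxylysine so that collagen and elastin fibers become crosslinked. Several of these genes are known targets of the hypoxia-inducible factors (HIF), and the stiffer matrix made by their products has been studied in tumor spread.

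Counted reads per library ranged from 27350424 to 41757584. The hypoxia genes CA9, NDRG1, VEGFA, SLC2A1 and PDK1 were higher in hypoxia in each line, by 1.18 to 4.45 on the log2 scale in RKO, 1.62 to 5.65 in A549 and 1.12 to 6.81 in H460. Of 5 colon markers only CDX2 was above 0.5 CPM (reads scaled to library size) in RKO normoxia, at 15.3 CPM, and CDX1, VIL1 and CDH17 were at 0 reads there. In A549 normoxia LGALS4 and CDH17 of that list stood at 0.894 and 2.37 CPM. Of 5 lung markers 1 (NAPSA) was above 0.5 CPM in both A549 normoxia libraries and 0 in H460 normoxia, while NKX2-1 was at 3.54 CPM in H460 hypoxia. Markers of fibroblasts, the cells that make most of the collagen in tissues, summed to at most 0.552 CPM in RKO, 3.90 CPM in A549 and 18.0 CPM in H460.

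In hypoxia, the transcripts of the prolyl 4-hydroxylase subunits P4HA1 and P4HA2 were upregulated in the 3 lines. Those of PLOD2, LOX and LOXL2 were upregulated in the lung lines A549 and H460, with LOX in H460 given as a description. PLOD2, LOX and LOXL2 passed no test in RKO, where they stood at 0.959 to 3.50 CPM in every library. PLOD1 was upregulated in RKO and H460. No member was called lower in any line. PLOD3, LOXL1, LOXL3 and LOXL4 passed the test in no line. A gene was called when the edgeR test of hypoxia against normoxia within the line gave an adjusted p below 0.1 with a fold change over 1.5. In bulk RNA, fewer cells with a transcript and less of it per cell cannot be told apart.

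Of the 10 genes, 9 passed the filter on low counts (more than 0.5 CPM in at least 2 of the 4 libraries) in each line. LOXL4 had too few reads in RKO and H460, and LOXL1 in A549. In RKO 3 were called higher, where 18.8% of the 12817 genes tested were called higher and 15.1% lower. In A549 5 were called higher, against 2.22% of 14251 genes called higher and 0.456% lower. The A549 calls were lost with limma on log2(RPKM + 0.1) and no filter on low values, where 0 members passed. In that setting 6 members had an unadjusted p under 0.05, and 28 of 19571 genes were called in all. These 5 were the only losses of an A549 member call over the alternatives, so the calls held with DESeq2 and with filtered limma. In H460 6 were called higher, against 24.6% of 14080 genes higher and 27.3% lower. LOX in H460 passed the filter only through its hypoxia libraries, so it had to differ to be tested at all, and 5 of the other 8 members tested there were called. Both hypoxia libraries lay above both normoxia libraries for 5 of the 9 genes tested in RKO, for 6 of 9 in A549 and, LOX included, for 7 of 9 in H460 (6 with LOX left out), and below them for 1 in each line. Over all genes tested the RKO shares were 38.9% above and 31.6% below, those of A549 26% and 23.9%, and those of H460 42.4% and 43.9%. The members tested in RKO had a median log2 fold change of 0.50 (all genes 0.01), those in A549 of 1.40 (all genes -0.01) and those in H460 of 2.62 with LOX and 1.82 without it (all genes -0.04).

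**Figure D1:**
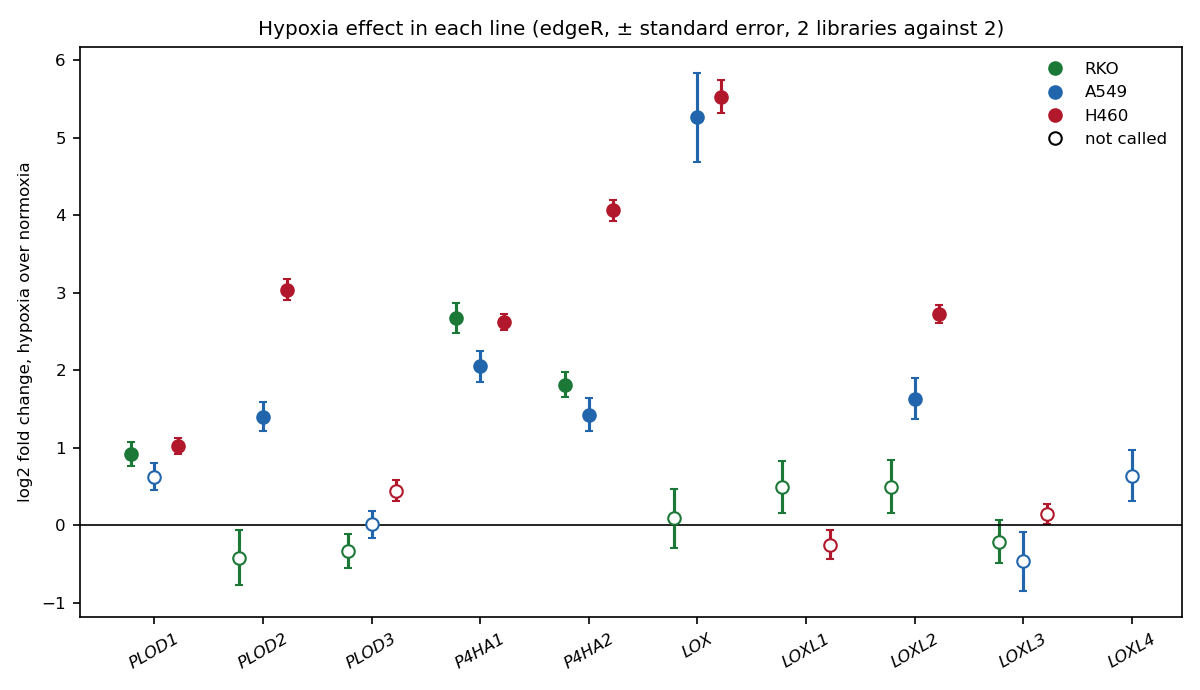
Log2 fold change of each gene in hypoxia over normoxia (vertical axis, edgeR, error bars 1 standard error, 2 libraries against 2) in RKO (green), A549 (blue) and H460 (red), with filled points for called genes. P4HA1 and P4HA2 are filled in the 3 lines, and LOX reaches 5.26 in A549 and 5.53 in H460 but 0.09 in RKO.

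Averaged over the lines in a joint fit of the 12 libraries, P4HA1, P4HA2, PLOD1, PLOD2, LOX and LOXL2 were called higher and no member lower, among 15595 genes of which 14.8% were called higher and 11.5% lower. The averages ran from 0.89 ± 0.08 (SE) for PLOD1 through 1.37 ± 0.11 for PLOD2, 1.65 ± 0.15 for LOXL2, 2.47 ± 0.12 for P4HA2 and 2.48 ± 0.11 for P4HA1 to 3.67 ± 0.30 for LOX on the log2 scale. For PLOD2, LOX and LOXL2 the average hides lines that differed, as given for each gene.

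The stretches upstream of 5 of these genes are shown because HIF binds DNA at the short core ACGTG or GCGTG. P4HA1, PLOD2 and P4HA2 were each called higher in both lung lines. LOX was called higher in A549, and its H460 value is a description. PLOD3 was called in neither lung line. The sequences are the 250 bases before the annotated start in the RefSeq promoter table (build GRCh38.p14), 5′ to 3′ on the gene's strand. Capitals mark a match to ACGTG or GCGTG on either strand, where CACGT and CACGC are the same motifs read from the other strand.
P4HA1 (chr10:73096867-73097116, minus strand): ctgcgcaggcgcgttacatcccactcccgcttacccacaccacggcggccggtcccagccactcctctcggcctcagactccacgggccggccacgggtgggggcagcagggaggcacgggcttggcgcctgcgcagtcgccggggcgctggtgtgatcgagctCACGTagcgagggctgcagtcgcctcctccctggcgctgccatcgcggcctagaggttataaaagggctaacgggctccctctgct
PLOD2 (chr3:146161185-146161434, minus strand): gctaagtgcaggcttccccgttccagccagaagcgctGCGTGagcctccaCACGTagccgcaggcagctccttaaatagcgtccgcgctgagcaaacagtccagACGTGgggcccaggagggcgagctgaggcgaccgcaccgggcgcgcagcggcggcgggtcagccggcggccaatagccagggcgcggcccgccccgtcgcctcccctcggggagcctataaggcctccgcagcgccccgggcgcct
LOX (chr5:122078260-122078509, minus strand): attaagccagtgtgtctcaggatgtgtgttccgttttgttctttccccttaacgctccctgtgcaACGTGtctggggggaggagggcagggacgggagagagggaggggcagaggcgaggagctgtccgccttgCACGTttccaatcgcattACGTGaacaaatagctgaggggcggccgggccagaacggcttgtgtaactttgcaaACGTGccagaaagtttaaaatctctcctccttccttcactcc
P4HA2 (chr5:132227092-132227341, minus strand): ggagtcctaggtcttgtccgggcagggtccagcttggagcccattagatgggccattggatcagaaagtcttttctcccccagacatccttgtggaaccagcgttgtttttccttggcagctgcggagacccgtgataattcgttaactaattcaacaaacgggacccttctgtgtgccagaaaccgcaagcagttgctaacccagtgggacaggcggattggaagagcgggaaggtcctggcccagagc
PLOD3 (chr7:101217582-101217831, minus strand): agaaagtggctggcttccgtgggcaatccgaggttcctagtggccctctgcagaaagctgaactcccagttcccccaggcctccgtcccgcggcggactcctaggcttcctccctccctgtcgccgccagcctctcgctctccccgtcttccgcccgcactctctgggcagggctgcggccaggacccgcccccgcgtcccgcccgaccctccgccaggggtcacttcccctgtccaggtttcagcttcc
The table held 9 of the 10 genes, all but LOXL2. Of those 9, 4 held a match to either motif, compared with 43.1% of 27305 promoters of the same length, and 3 held ACGTG, compared with 18.7% of them (31.9% held GCGTG). LOX had 4 matches to ACGTG, PLOD2 had 2 to ACGTG and 1 to GCGTG, PLOD1 had 2 to GCGTG, and P4HA1 had 1 to ACGTG. No match overlapped another. Neither motif was found in the windows of P4HA2, PLOD3, LOXL1, LOXL3 and LOXL4, and P4HA2 rose in the 3 lines with no match in this window. A match is a run of letters and not a measured site, and the LOX and LOXL3 genes have further starts in the table that were not shown. Whether the GRCh38.p14 starts used here are those of the gene models counted in GRCh37/hg19 was not tested. For P4HA2, as for the others, a match near another start was not looked for.

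P4HA1 (chr10:74766980-74856732, minus strand of GRCh37/hg19, the build of the counts), the alpha subunit of the main prolyl 4-hydroxylase, rose in each line. Levels are given as CPM scaled by the trimmed mean of M values (TMM) across the 12 libraries, in the order replicate 1 and replicate 2. In RKO P4HA1 stood at 41.3 and 30.9 CPM in normoxia and 273 and 210 CPM in hypoxia. The A549 libraries gave 47.7 and 50.6 CPM in normoxia and 173 and 239 CPM in hypoxia, and those of H460 145 and 125 CPM in normoxia and 842 and 836 CPM in hypoxia. Both hypoxia libraries were above both normoxia libraries in each line, and H460 was the highest line in either condition. The log2 fold change was 2.68 ± 0.20 in RKO (SE, n = 2 against 2, edgeR adjusted p = 4.08e-05), 2.05 ± 0.20 in A549 (edgeR adjusted p = 0.00441) and 2.62 ± 0.11 in H460 (edgeR adjusted p = 2.73e-09). The value in RKO was above that in A549 by 0.67 ± 0.26, which did not pass the test of the difference (edgeR adjusted p = 0.131), and with the replicate number as a block it did (0.69 ± 0.16, edgeR adjusted p = 0.0157). RKO and H460 differed by 0.10 ± 0.26 (edgeR adjusted p = 0.824). A549 minus H460 was -0.57 ± 0.26 (edgeR adjusted p = 0.125), and this too passed with the block, at -0.59 ± 0.16 (edgeR adjusted p = 0.0150).

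P4HA2 (chr5:131528304-131563556, minus strand), the alpha subunit of another prolyl 4-hydroxylase, rose more in H460 than in RKO or A549. Its level there went from 35.7 and 27.7 CPM in normoxia to 583 and 489 CPM in hypoxia. RKO started from 35.2 and 28.6 CPM and reached 117 CPM in both hypoxia libraries, while A549 went from 85.5 and 67.6 CPM to 174 and 243 CPM. Again no hypoxia library overlapped the normoxia libraries of its line. The log2 fold change was 4.07 ± 0.14 in H460 (edgeR adjusted p = 1.35e-09), 1.82 ± 0.16 in RKO (edgeR adjusted p = 7.71e-05) and 1.43 ± 0.21 in A549 (edgeR adjusted p = 0.0155). In normoxia H460 minus RKO was -0.01 ± 0.19 (edgeR adjusted p = 0.974), and A549 was higher than RKO by 1.26 ± 0.19. The rise in H460 exceeded that in RKO by 2.20 ± 0.27 and that in A549 by 2.63 ± 0.27, whereas RKO and A549 differed by 0.43 ± 0.27 (edgeR adjusted p = 0.348).

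PLOD1 (chr1:11994724-12035599, plus strand), which hydroxylates lysines of the collagen helix, was at similar levels in the 3 lines. Normoxia gave 171 and 185 CPM in RKO, 188 and 160 CPM in A549, and 219 and 185 CPM in H460. Hypoxia gave 339 and 364 CPM in RKO, 267 and 277 CPM in A549, and 438 and 392 CPM in H460. All 6 hypoxia libraries were above all 6 normoxia libraries. The log2 fold change was 0.92 ± 0.15 in RKO (edgeR adjusted p = 0.00122) and 1.02 ± 0.10 in H460 (edgeR adjusted p = 3.46e-06). In A549 it was 0.63 ± 0.18 and did not pass (edgeR adjusted p = 0.138), and with the replicate number as a block it was 0.64 ± 0.13 and passed (edgeR adjusted p = 0.000911), where 13.4% of all genes were called in A549 with the block. It also passed with DESeq2 (adjusted p = 0.0542), in the joint fit of the 12 libraries (edgeR adjusted p = 0.0163), with no filter on low counts (edgeR adjusted p = 0.0942) and without A549 hypoxia replicate 1 (edgeR adjusted p = 0.0937), at 0.62 to 0.65. In normoxia no pair of lines passed the test for PLOD1, with differences of -0.21 to 0.18 on the log2 scale.

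PLOD2 (chr3:145787228-145879282, minus strand), the telopeptide lysyl hydroxylase, had the widest range among the lysyl hydroxylases. RKO held 48 and 59 reads in normoxia and 43 and 41 in hypoxia, or 1.06 to 1.48 CPM. A549 went from 566 and 646 CPM to 1514 and 1728 CPM, and H460 from 47.6 and 35.8 CPM to 379 and 316 CPM. RKO was thus near the filter of 0.5 CPM in both conditions, with the hypoxia libraries slightly below those of normoxia, and A549 in normoxia was above H460 in hypoxia. The log2 fold change was 1.40 ± 0.18 in A549 (edgeR adjusted p = 0.00795), 3.04 ± 0.14 in H460 (edgeR adjusted p = 6.27e-09) and -0.42 ± 0.36 in RKO (edgeR adjusted p = 0.383). At normoxia A549 exceeded RKO by 8.78 ± 0.24 and H460 by 3.86 ± 0.18, and H460 exceeded RKO by 4.91 ± 0.21 on the log2 scale. The 3 lines differed pairwise in the size of the response, by 1.64 ± 0.23 between H460 and A549 (edgeR adjusted p = 0.000314), and by 1.78 ± 0.29 between A549 and RKO and 3.42 ± 0.30 between H460 and RKO (edgeR adjusted p = 0.00325 and 8.41e-06).

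PLOD3 (chr7:100849258-100861011, minus strand), a lysyl hydroxylase that also transfers sugars to hydroxylysine, passed the test in no line. RKO gave 107 and 168 CPM in normoxia and 99.6 and 128 CPM in hypoxia, and A549 gave 91.2 and 77.7 CPM and then 82.7 and 89.6 CPM. The groups overlapped in both lines. H460 went from 289 and 221 CPM to 388 and 316 CPM, with a log2 fold change of 0.45 ± 0.13 (edgeR adjusted p = 0.00877) that was under the fold change limit. Against it the values were -0.33 ± 0.22 in RKO (edgeR adjusted p = 0.25) and 0.01 ± 0.17 in A549 (edgeR adjusted p = 0.979). RKO lay below H460 in response by 0.74 ± 0.30 (edgeR adjusted p = 0.0752), a difference that was -0.34 and did not pass when libraries were scaled by their totals alone. Nor did it pass with limma on log2(RPKM + 0.1), with or without the filter (-0.33), or on log2(RPKM + 1) (-0.32). It was also lost when RKO normoxia replicate 2 (-0.37), RKO hypoxia replicate 1 (-0.56), H460 normoxia replicate 2 (-0.56) or H460 hypoxia replicate 1 (-0.60) was left out. Single libraries decided the PLOD3 calls within lines as well. Without RKO normoxia replicate 1 the RKO value was -0.62 and was called lower, without RKO normoxia replicate 2 it was 0.03, and the H460 value was 0.62 without normoxia replicate 1 and 0.61 without hypoxia replicate 2 and was then called higher. Scaling by totals lowered the median of all genes by 0.35 in H460, and shifted it by 0.08 in RKO and -0.09 in A549.

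**Figure D2:**
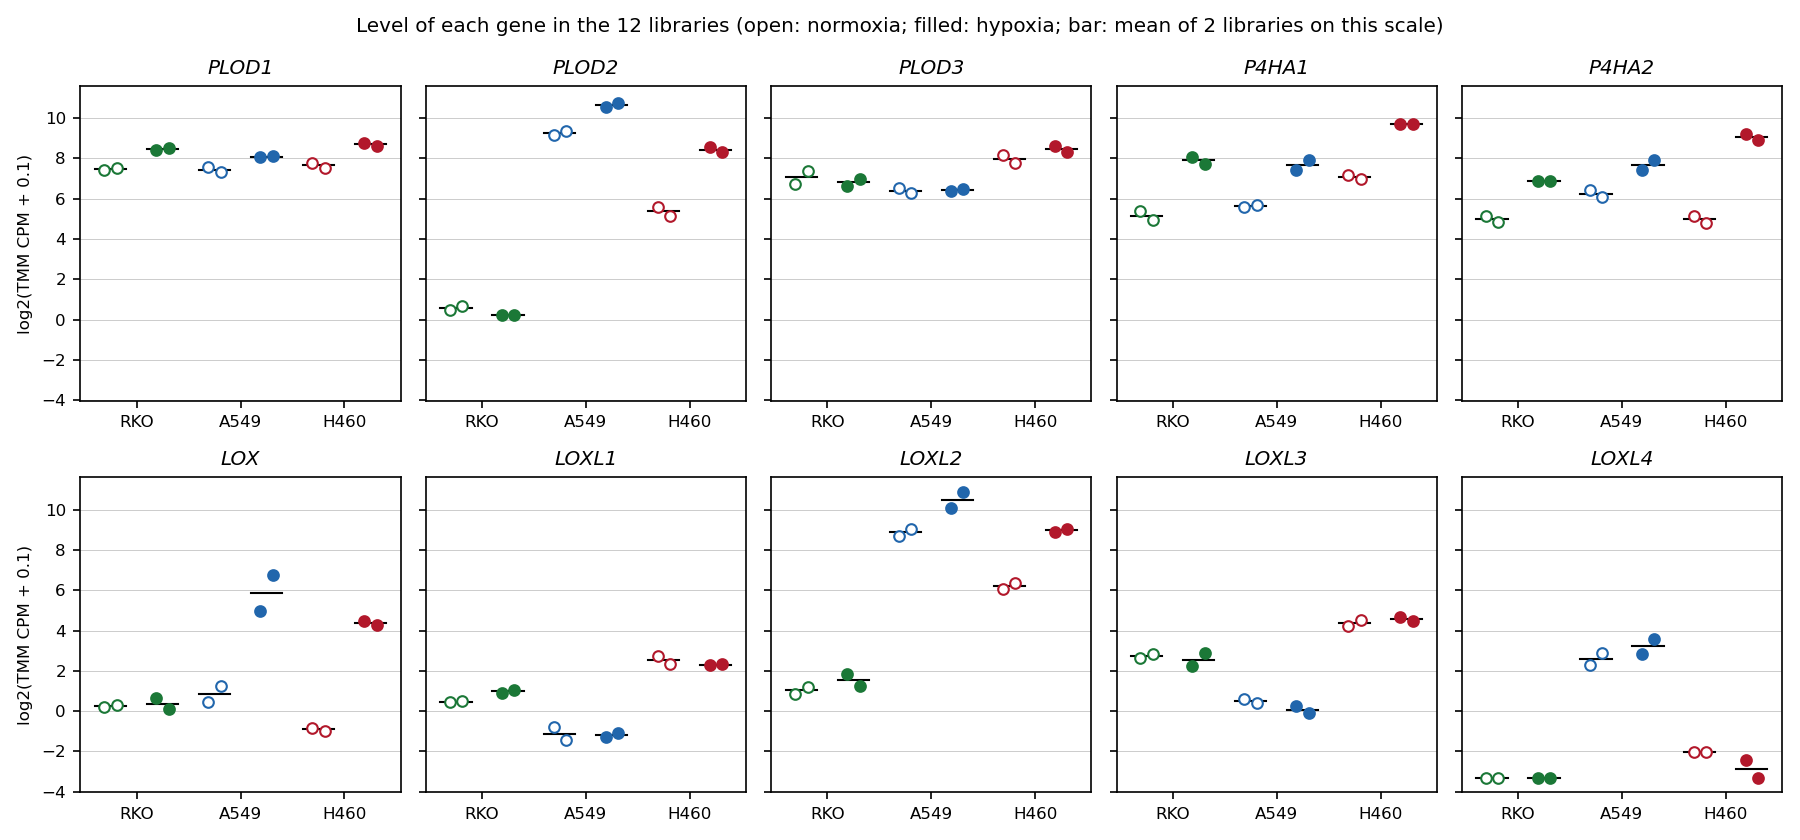
Level of each of the 10 genes in the 12 libraries as log2(TMM CPM + 0.1) (vertical axis), with open points for normoxia, filled points for hypoxia and a bar at the mean of the 2 libraries. PLOD2, LOXL2 and LOX lie low in RKO in both conditions, and LOXL4 is at 0 reads in the 4 RKO libraries.

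LOX (chr5:121398890-121414055, minus strand), the founding lysyl oxidase, was low in normoxia and had the largest log2 fold change of the members in both lung lines. In normoxia RKO held 40 and 45 reads, A549 53 and 94, and H460 13 and 14, or 0.410 to 2.31 CPM over the 6 libraries. In hypoxia A549 held 1322 and 3698 reads (31.7 and 108 CPM) and H460 525 and 545 reads (22.2 and 18.9 CPM), while RKO held 60 and 36 reads (1.48 and 0.959 CPM). The hypoxia libraries of the lung lines were far above every normoxia library, and those of RKO straddled their own normoxia libraries. The log2 fold change was 5.26 ± 0.57 in A549 (edgeR adjusted p = 0.00467), 5.53 ± 0.21 in H460, given as a description since LOX was tested there only through its hypoxia libraries, and 0.09 ± 0.38 in RKO (edgeR adjusted p = 0.872). RKO differed from A549 by -5.13 ± 0.71 (edgeR adjusted p = 0.00124) and from H460 by -5.40 ± 0.79 (edgeR adjusted p = 0.000281), and A549 and H460 by -0.27 ± 0.74 (edgeR adjusted p = 0.824).

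The A549 hypoxia libraries did not respond alike for LOX. Over the mean of the normoxia libraries, replicate 1 was 17.7-fold and replicate 2 60.3-fold higher. The fitted log2 fold change was 4.14 without hypoxia replicate 2 and 5.88 without hypoxia replicate 1. The same order held for LOXL2 (2.31-fold and 3.97-fold), P4HA1 (3.52-fold and 4.86-fold), P4HA2 (2.27-fold and 3.18-fold) and, less widely, PLOD2 (2.5-fold and 2.85-fold) and PLOD1 (1.54-fold and 1.59-fold). LOXL4 had it too (1.18-fold and 1.98-fold), as had PLOD3 (0.979 and 1.06) and LOXL1 (0.834 and 1.01), whereas LOXL3 had the other order (0.819 and 0.641). In H460 the corresponding LOX folds were 50.8 and 43.5.

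LOXL2, a lysyl oxidase with scavenger receptor domains, was the leading family member in both lung lines. A549 had 418 and 532 CPM in normoxia and 1099 and 1887 CPM in hypoxia. H460 had 67.6 and 82.6 CPM and then 479 and 530 CPM, and H460 in hypoxia stood 0.09 ± 0.24 on the log2 scale from A549 in normoxia (edgeR adjusted p = 0.751). RKO held 64 and 88 reads in normoxia and 142 and 85 in hypoxia, 1.70 to 3.50 CPM, with hypoxia replicate 2 only just above the higher normoxia library. The log2 fold change was 1.64 ± 0.26 in A549 (edgeR adjusted p = 0.0223), 2.73 ± 0.12 in H460 (edgeR adjusted p = 3.97e-09) and 0.50 ± 0.34 in RKO (edgeR adjusted p = 0.276). The RKO value came to 0.78 and passed without RKO hypoxia replicate 2 (edgeR adjusted p = 0.0895). H460 rose more than A549 by 1.10 ± 0.34 (edgeR adjusted p = 0.0265) and more than RKO by 2.19 ± 0.39 (edgeR adjusted p = 0.00106). The difference between A549 and RKO, 1.09 ± 0.39, was just within the limit (edgeR adjusted p = 0.0958) and lost it without A549 hypoxia replicate 2 (0.65 on the log2 scale), without A549 normoxia replicate 1 (0.93), without either RKO normoxia library (1.26 and 0.89), without RKO hypoxia replicate 2 (0.80) and without any 1 of the 4 H460 libraries (1.07 to 1.09). The difference between A549 and RKO was also lost with library totals alone (0.96) and with unfiltered limma on log2(RPKM + 0.1) (1.02). Without H460 normoxia replicate 1 the difference between H460 and A549 was 0.95 and did not pass. It did not pass with unfiltered limma either (0.88). In normoxia A549 was above RKO by 7.92 ± 0.33 and above H460 by 2.66 ± 0.25.

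LOXL1 (chr15:74218789-74244478, plus strand), which acts on elastin, and LOXL3 (chr2:74759386-74781091, minus strand) were highest in H460 and called in no line. LOXL1 was at 6.45 and 5.01 CPM in H460 normoxia and 4.81 and 4.90 CPM in hypoxia, at 1.28 and 1.31 CPM in RKO normoxia and 1.80 and 2.00 CPM in hypoxia, and at 11 to 20 reads per library in A549. Its log2 fold change was -0.25 ± 0.19 in H460 (edgeR adjusted p = 0.247) and 0.50 ± 0.34 in RKO (edgeR adjusted p = 0.270). The H460 value was -0.60 and passed as lower when libraries were scaled by their totals alone (edgeR adjusted p = 0.0161). LOXL3 was at 18.9 and 23.2 CPM in H460 normoxia and 25.4 and 21.7 CPM in hypoxia, between 4.68 and 7.19 CPM in the RKO libraries and between 0.843 and 1.43 CPM in those of A549. Its log2 fold changes were 0.14 ± 0.13, -0.21 ± 0.28 and -0.46 ± 0.38 in H460, RKO and A549 (edgeR adjusted p = 0.343, 0.589 and 0.587). The LOXL3 value in H460 turned to -0.21 with library totals alone.

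LOXL4 (chr10:100007443-100028007, minus strand), a further lysyl oxidase, was detected mainly in A549. It had 202 and 295 reads in A549 normoxia and 297 and 410 in hypoxia (4.81, 7.24, 7.11 and 11.9 CPM), 4 and 5 reads in H460 normoxia and 2 and 0 in hypoxia, and none in the 4 RKO libraries, which allows at most 3 counts or 0.0739 to 0.0799 CPM per library. The mean of A549 was at least 156-fold higher than a floor of 3 counts over the group in RKO in normoxia and at least 248-fold higher in hypoxia. In normoxia A549 exceeded H460 by 5.35 ± 0.53 on the log2 scale (edgeR adjusted p = 2.53e-06). The hypoxia effect in A549 was 0.64 ± 0.33 (edgeR adjusted p = 0.363), with overlapping libraries, and with the replicate number as a block it was 0.63 ± 0.23, which passed (edgeR adjusted p = 0.0491), against the same 13.4% of all genes. It was 0.96 and passed without A549 hypoxia replicate 1 (edgeR adjusted p = 0.0833).

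With the 6 groups set in order of their mean CPM, H460 in hypoxia stood first for PLOD1, PLOD3, P4HA1, P4HA2 and LOXL3, and A549 in hypoxia for PLOD2, LOX, LOXL2 and LOXL4. H460 in normoxia stood first for LOXL1. Neighbours in this order were tested in the joint fit at an adjusted p below 0.1, with no fold change limit. Between any 2 groups, 12% to 80.3% of all genes passed it. PLOD3 in H460 passed by this rule, with hypoxia over normoxia by 0.47 ± 0.21 (edgeR adjusted p = 0.0742), though it was not called within the line. The first group did not pass the test against the next for PLOD1 (0.24 ± 0.14 over RKO in hypoxia, edgeR adjusted p = 0.137) and LOXL1 (0.24 ± 0.28, edgeR adjusted p = 0.494). Nor did it for LOXL3 (0.16 ± 0.23, edgeR adjusted p = 0.578) and LOXL4 (0.66 ± 0.35, edgeR adjusted p = 0.283). For LOXL1, LOXL3 and LOXL4 the next was the other condition of the same line. RKO in normoxia or hypoxia stood last for PLOD2, LOXL2, P4HA1 and LOXL4, and for P4HA1 RKO in hypoxia did not pass the test against A549 in hypoxia (0.23 ± 0.19, edgeR adjusted p = 0.293). For LOX neither A549 in normoxia against RKO in hypoxia (0.54 ± 0.51, edgeR adjusted p = 0.357) nor RKO in hypoxia against normoxia passed.

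Leaving LOXL4 aside in RKO, A549 normoxia was higher than RKO for 3 members (PLOD2, P4HA2 and LOXL2) and lower for 3 (PLOD3, LOXL1 and LOXL3), where 34.1% of genes were called higher and 26% lower. H460 was higher than RKO for 6 (PLOD2, PLOD3, P4HA1, LOXL1, LOXL2 and LOXL3) and lower for LOX, where 34.7% were called higher and 27.2% lower. The LOX call rested on 13 and 14 reads against 40 and 45, at -1.33 ± 0.65 (edgeR adjusted p = 0.0836), and it was lost without any 1 of the RKO or H460 normoxia libraries (-1.41 to -1.23) and without RKO hypoxia replicate 2 (-1.32). The PLOD3 difference between A549 and RKO was -0.70 ± 0.21 and was lost without RKO normoxia replicate 2 (-0.33). A549 was higher than H460 for 5 (PLOD2, P4HA2, LOX, LOXL2 and LOXL4) and lower for 4 (PLOD3, P4HA1, LOXL1 and LOXL3), where 26.9% were called higher and 25.2% lower. Of these, LOX was higher by 2.03 on the log2 scale, and with limma on log2(RPKM + 1) it was 0.31 and did not pass (adjusted p = 0.489).

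The size of the response differed between RKO and A549 for 3 of 9 members (PLOD2, LOX and LOXL2), where 14.6% of all genes differed. Between RKO and H460 it differed for 5 (these and PLOD3 and P4HA2), where 37.6% did, and between A549 and H460 for 3 (PLOD2, P4HA2 and LOXL2), where 36% did. With the replicate number as a block, 6 members differed between A549 and H460, the added ones being PLOD1 (-0.39 ± 0.14), PLOD3 (-0.44 ± 0.16) and P4HA1, and the share of all genes rose to 46.1%. The number of members that differed between A549 and H460 also moved without A549 hypoxia replicate 2, a fit with 1 library in that group. In each of the 11 differences called without the block, the log2 fold change was lower in RKO than in a lung line, or lower in A549 than in H460. They come from PLOD2, LOX, LOXL2, P4HA2 and PLOD3 in overlapping pairs of lines. Over all genes, 862 were called lower and 1408 higher for RKO minus A549. The numbers were 2565 and 3292 for RKO minus H460, and 2682 and 2925 for A549 minus H460. With the block P4HA1 went the other way, with a larger rise in RKO than in A549 (0.69 ± 0.16).

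The make-up of each enzyme family was read from the deposited RPKM, which are scaled by gene length and by library total, as shares of the family sum within a library. PLOD2 made up 0.310% and 0.339% of the lysyl hydroxylase RPKM in RKO normoxia, 60.1% to 66.8% in A549 normoxia and 6.12% to 6.49% in H460 normoxia. In hypoxia its share was 0.165% to 0.179% in RKO, 76.3% to 77.8% in A549 and 24.8% to 25.4% in H460. PLOD2 thus led in A549 in either condition. RKO held PLOD1 at 51.8% to 61.0% in normoxia and 73.6% to 76.8% in hypoxia, and H460 held PLOD3 at 51.5% to 53.6% in normoxia and 33.9% to 35.4% in hypoxia. The sum of the 3 genes went from 112 ± 21.5 to 167 ± 22.7 RPKM (SD, n = 2) in RKO, from 248 ± 7.33 to 508 ± 26.6 RPKM in A549, and from 169 ± 24.6 to 274 ± 21.0 RPKM in H460.

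For the prolyl 4-hydroxylase alpha subunits, P4HA3, which is not among the 10 genes, was added to the sum. P4HA1 and P4HA2 shared the RKO normoxia sum almost evenly (49.2% to 51.2% and 48.6% to 50.6%), and P4HA1 was 61.7% to 67.6% of it in hypoxia. In H460 the shares moved the other way, with P4HA1 going from 71.6% to 73.3% in normoxia to 54.7% to 59.2% in hypoxia and P4HA2 from 18.1% to 19.6% to 38.6% to 42.2%. P4HA3 was 26.1% and 43.2% of the sum in the A549 normoxia libraries, 8.67% to 8.81% in H460 and at most 0.261% in RKO. The summed RPKM went from 25.3 ± 3.85 to 133 ± 8.88 in RKO, from 72.8 ± 7.90 to 192 ± 51.0 in A549 and from 64.5 ± 7.0 to 395 ± 9.22 in H460.

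LOXL2 was 98.0% to 98.1% of the lysyl oxidase RPKM in A549 normoxia, and LOX, for all its rise, reached 1.98% and 3.84% in the A549 hypoxia libraries. H460 went from 69.4% to 72.1% LOXL2 and 19.5% to 20.4% LOXL3 to 90.7% to 92.5% LOXL2, with LOX at 2.33% to 2.96%. In RKO LOXL3 led, at 57.4% to 58.4% in normoxia, of a sum of 3.20 ± 0.42 RPKM, beside 134 ± 24.5 RPKM in A549 and 29.0 ± 3.71 RPKM in H460. The sums in hypoxia were 3.63 ± 0.45, 398 ± 143 and 117 ± 11.1 RPKM.

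**Figure D3:**
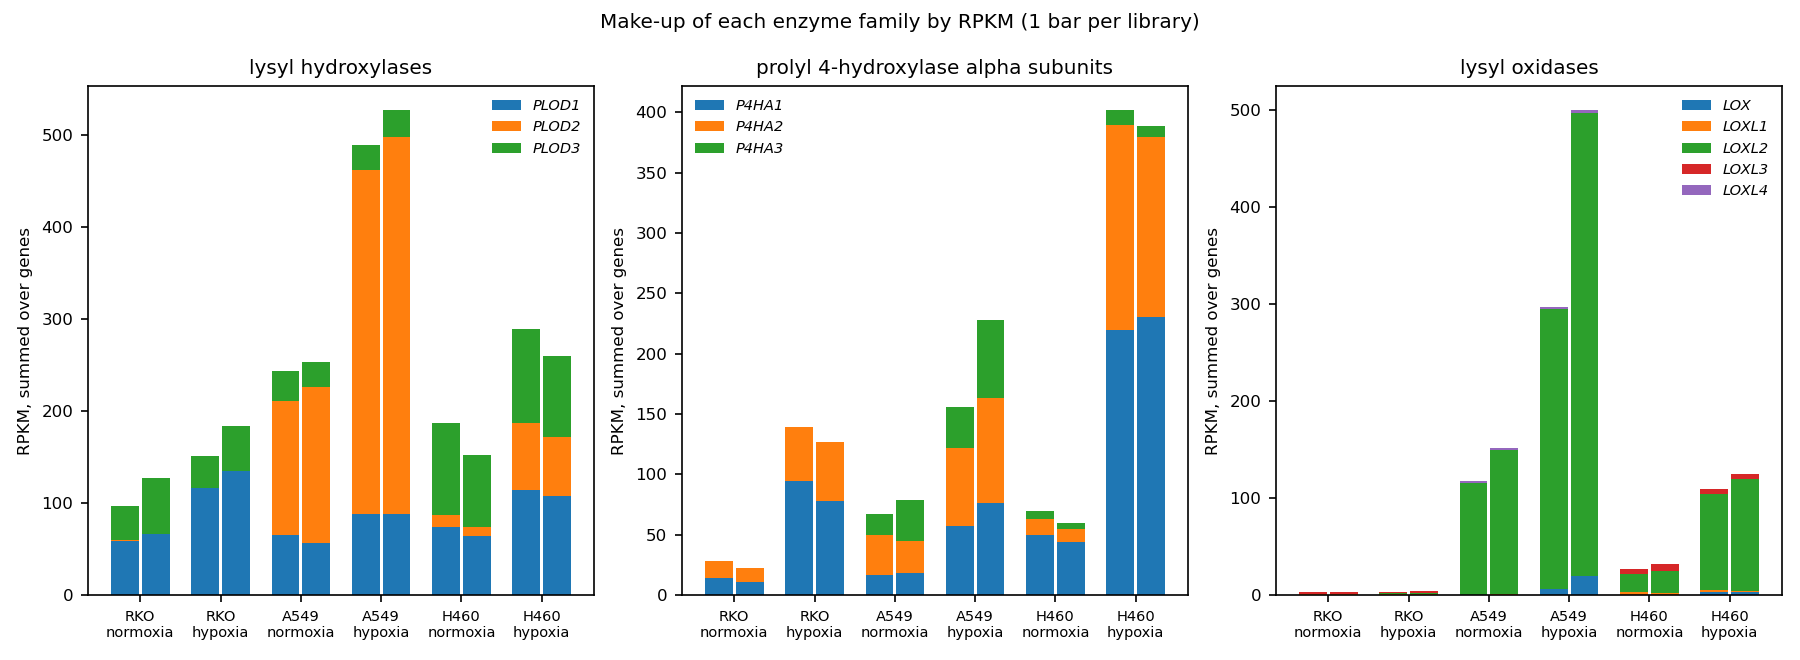
RPKM of the lysyl hydroxylases, prolyl 4-hydroxylase alpha subunits and lysyl oxidases, stacked by gene (vertical axis, RPKM), with 1 bar per library and 2 libraries per group. PLOD2 and LOXL2 fill most of the A549 bars, and the lysyl oxidase sum in RKO stays at 3.20 RPKM in normoxia and 3.63 RPKM in hypoxia on average.

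The genes that work beside the members were followed in a list of 31 (partners of the hydroxylases, collagen chaperones and glycosyltransferases, procollagen proteinases, and crosslinked substrates). In RKO 22 were tested, 10 were called higher and 2 lower (18.8% and 15.1% of all genes), with a median log2 fold change of 0.05. There 12 of the 22 values were above 0, beside 6485 of 12817 over all genes. COL1A1, among those 10, passed the filter in RKO only through its hypoxia libraries, so it had to differ to be tested. In A549 24 were tested, 3 were called higher and 0 lower (2.22% and 0.456% of all genes), with a median of 0.34 and all 24 values above 0, beside 6955 of 14251 over all genes. In H460 23 were tested, 7 were called higher and 0 lower (24.6% and 27.3% of all genes), with a median of 0.29. Of these 23 values 19 were above 0, beside 6799 of 14080 over all genes. P4HB, the subunit that the prolyl 4-hydroxylases share, rose by 0.96 ± 0.16 in RKO (edgeR adjusted p = 0.00141) and 0.89 ± 0.11 in H460 (edgeR adjusted p = 2.42e-05) and had a value of 0.32 ± 0.18 in A549 (edgeR adjusted p = 0.411). Its alpha subunit partners P4HA1 and P4HA2 rose in the 3 lines.

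Among the substrates, EFEMP2, an elastic fiber protein, had the highest value of the called list genes in RKO and H460. It went from 0.877 and 0.552 CPM to 11.9 and 8.66 CPM in RKO (3.79 ± 0.34), from 4.57 and 8.17 CPM to 12.3 and 31.8 CPM in A549 (1.77 ± 0.43, edgeR adjusted p = 0.0993), and from 1.95 and 2.40 CPM to 66.2 and 61.3 CPM in H460 (4.84 ± 0.13). COL1A1, a chain of type I collagen, rose by 2.15 ± 0.40 in RKO, where it passed the filter only through its hypoxia libraries at 1.72 and 2.00 CPM, and by 2.08 ± 0.48 in A549. COL5A1, a chain of type V collagen, rose by 1.76 ± 0.33 in A549. TLL2, a procollagen proteinase, rose by 1.02 ± 0.45 in RKO (edgeR adjusted p = 0.0972), and in H460 PCOLCE, which enhances such proteinases, and P4HA3 rose by 1.35 ± 0.17 and 1.27 ± 0.17. The 2 genes called lower in RKO were PPIB, a prolyl isomerase of the endoplasmic reticulum (-0.85 ± 0.18), and LEPREL2, a prolyl 3-hydroxylase (-0.74 ± 0.22).

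**Figure D4:**
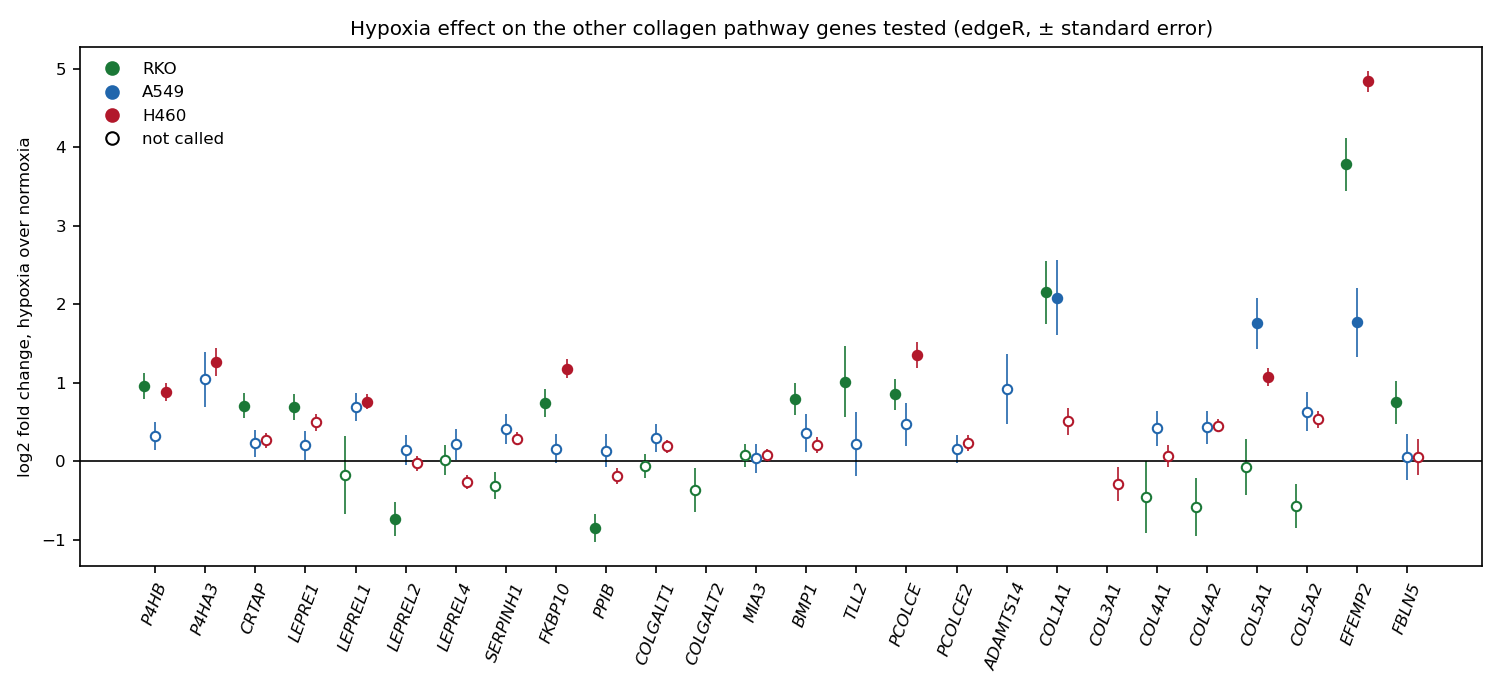
Log2 fold change in hypoxia over normoxia (vertical axis, edgeR, error bars 1 standard error) of the other collagen pathway genes tested in RKO (green), A549 (blue) and H460 (red), with filled points for called genes. EFEMP2 is filled in the 3 lines, at 3.79, 1.77 and 4.84, and only PPIB and LEPREL2 in RKO are filled below 0.

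Across the 12 libraries, which share 3 lines and 2 conditions, PLOD2 and LOXL2 ran together (Pearson r = 0.993, Spearman rho = 0.902 on log2 levels), as did PLOD1 and P4HA1 (r = 0.918, rho = 0.916) and LOXL1 and LOXL3 (r = 0.973, rho = 0.888). PLOD3 ran together with LOXL3 (r = 0.926, rho = 0.944) and with LOXL1 (r = 0.917, rho = 0.902). PLOD1 and PLOD2 did not (r = 0.07, rho = -0.02). Among 12423 genes with a mean of at least 100 counts, those most like LOXL2 were WISP2 (r = 0.998), ITGB4 (0.997) and CLDN7 (0.995), and those most like PLOD2 were RGAG4 (0.997), WISP2 (0.994) and ITGB4 (0.994). These values describe patterns in which the levels of the lines differ by more than the conditions do for PLOD2 and LOXL2. LOX was most like TARSL2 (0.937), SERPINB6 (0.935) and ANGPTL4 (0.933), and P4HA1 like F3 (0.983), RBL2 (0.974) and CRELD1 (0.971).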

How the data were processed

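Poly(A)+ RNA was measured in 12 libraries, 2 for each line and oxygen condition, of 27350424 to 41757584 counted reads. The deposited counts are whole reads per gene, which the authors made by trimming low-quality bases, aligning with TopHat2 2.0.13 to GRCh37/hg19, removing poorly mapped reads and counting exon reads by strand with HTSeq 0.6.1 (tools per the labels and the study's methods). The deposited RPKM divide these by gene length and library total. Reads from near-identical copies are not resolved by such counting. The study's own comparisons used DESeq2.

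Hypoxia was tested against normoxia within each line with edgeR 4.0.16 (R 4.3.3, quasi-likelihood test, TMM scaling) over genes above 0.5 CPM in at least 2 libraries, with Benjamini-Hochberg adjustment over all genes tested. A call needed an adjusted p below 0.1 and a fold change over 1.5, and a difference between lines the adjusted p alone. Differences between lines, averages and normoxia levels came from 1 joint fit of the 12 libraries. The scripts were tested on simulated data. Alternatives were DESeq2 1.42.0, limma 3.58.1 on log2(RPKM + 0.1) and log2(RPKM + 1), other scaling and filters, a fold change over 2, and each replicate left out. Of genes other than the members, the text names the 3 called genes of the pathway list with the largest fold changes in each line, P4HB, the genes called lower in RKO (chosen after their values were seen) and the 3 genes most like LOX, PLOD2, P4HA1 and LOXL2. The members and lists were chosen with earlier results of these data known.

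The labels give the groups the same replicate numbers without saying what a number shares. Libraries with the same number deviated together in each line (correlation over genes 0.357 in RKO, 0.371 in A549 and 0.145 in H460), so the values with the replicate number as a block stand beside the results whose call they change. With 2 libraries per group an exact permutation test cannot reach 0.1, and only the fits across all genes were used. The floors of LOXL4 cover counting error only. The standard errors of edgeR also take in the spread between replicate libraries.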

Additional observations from a re-analysis of the deposited data

Results flagged for a closer look

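The difference of the hypoxia effect between lines passed its test for 11 pairs of gene and lines. These results are given here because the same exposure changed the gene by different amounts. Where H460 is 1 of the lines, line and medium cannot be told apart. PLOD2 gave -1.78 ± 0.29 for RKO minus A549, -3.42 ± 0.30 for RKO minus H460 and -1.64 ± 0.23 for A549 minus H460 on the log2 scale. LOX gave -5.13 ± 0.71 for RKO minus A549 and -5.40 ± 0.79 for RKO minus H460. LOXL2 gave -1.09 ± 0.39 for RKO minus A549, -2.19 ± 0.39 for RKO minus H460 and -1.10 ± 0.34 for A549 minus H460. P4HA2 gave -2.20 ± 0.27 for RKO minus H460 and -2.63 ± 0.27 for A549 minus H460. PLOD3 gave -0.74 ± 0.30 for RKO minus H460. The RKO values of PLOD2, LOX and LOXL2 rest on 36 to 142 reads per library. The LOX value of H460 rests on 13 and 14 reads in normoxia. LOXL2 for RKO minus A549 and PLOD3 for RKO minus H460 were near the limit (edgeR adjusted p = 0.0958 and 0.0752). Both were lost under several of the alternatives, as given for each gene.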

How the results depend on the processing

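Each result was recomputed under the alternatives named above. Of the values for single genes, 1237 kept their direction and side of the threshold, 41 no longer passed, 13 newly passed and 14 changed sign, none of the last called. Differences between lines, averages and normoxia levels entered this tally only where the main fit called them, so none of them could newly pass in it. The differences of P4HA1, PLOD1 and PLOD3 that newly passed with the block are therefore not counted. The count of members called higher stayed within 1.5 times in RKO and H460. In A549 it was 0 with limma on log2(RPKM + 0.1) without a filter (28 of 19571 genes called) and 7 with the replicate block (13.4% of all genes called). With 1 library left out it did not fall below that of the main fit, and the share of all genes in those fits was not taken. With library totals alone 1 member was called lower in H460 (LOXL1). Without single RKO libraries 0 to 1 members were called lower in RKO (PLOD3). The members that differed between A549 and H460 numbered 6 with the replicate block, 5 with limma on log2(RPKM + 1) and 2 to 5 with 1 library left out. The block changed no other count by more than 1.5 times. Members lower in H460 than RKO at normoxia (LOX) numbered 0 with limma on log2(RPKM + 0.1), with and without the filter, and on log2(RPKM + 1), and 0 to 1 with 1 library left out.

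PLOD3 in A549 was -0.078 with library totals alone, -0.074 with limma on log2(RPKM + 0.1), with or without the filter, -0.072 on log2(RPKM + 1), and -0.10 to 0.14 with 1 library left out. LOXL3 in H460 was -0.21 with library totals alone, -0.20 with limma on log2(RPKM + 0.1), with or without the filter, -0.17 on log2(RPKM + 1), and -0.038 to 0.27 with 1 library left out. In RKO, leaving out 1 library gave -0.20 to 0.38 for LOX, -0.55 to 0.11 for LOXL3 and -0.62 to 0.028 for PLOD3. LOX in H460 was not tested without either hypoxia library, since it then failed the filter. The cause was not tested. LOX, PLOD2 and LOXL1 in RKO had under 100 reads per library, and their standard errors of 0.34 to 0.38 limit what could be seen there.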
